A study of Mus musculus with 2 samples.

Results

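Histone genes were identified by symbol: a gene counted when its symbol began with Hist1h, Hist2h, Hist3h, Hist4h, H2af, H3f or H1f and it had a protein-coding transcript. This gave 82 genes of 55536 measured, 22028 of which were protein-coding. Of the 82, 67 carried a Hist symbol and lie in the histone gene clusters (called clustered genes here), and 15 carried an H2af, H3f or H1f symbol (called variant genes). A further 9 genes with such symbols had no protein-coding transcript, 8 of them pseudogenes and 1 the antisense gene H3f3aos, and were left out. The RNA came from the cytosol of primary macrophages grown from C57BL/6J mouse bone marrow and exposed to lipid A, the membrane anchor of bacterial lipopolysaccharide, at 100 ng/ml for 75 minutes. All samples formed 1 group of 2 ribosomal RNA-depleted libraries, replicates 1 and 2, each from 1 µg of RNA. The labels number them as biological replicates, but both carry the same donor identifier. Whether the cultures or animals were separate is not stated, so the SD between the libraries may be partly technical. Age and sex were not recorded. Untreated cells were not analysed here, so the values describe levels after stimulation and not a response to lipid A.

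Histones package DNA into nucleosomes. The core histones H2A, H2B, H3 and H4 form the nucleosome, and H1 binds the linker DNA. Clustered genes are transcribed mainly in S phase, when new chromatin is assembled; their mRNAs typically lack introns and end in a conserved stem-loop, bound by SLBP, in place of a poly(A) tail. Variant genes mostly lie outside the clusters and are mostly transcribed through the cell cycle. They often have introns and polyadenylated mRNAs, and many supply histones that are exchanged into chromatin without replication. Variant genes are a source of new histone in cells that have left the cell cycle. None of the variant genes here encodes H2B or H4. In bulk RNA, fewer cells expressing a gene and less RNA per cell cannot be told apart.

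The stem-loop that marks the clustered class was read from the leading annotated transcript of each gene, the protein-coding transcript with the highest count. The search took 6 bases beginning GG, a loop of 4 bases beginning TT, and the inverted repeat of the first 6 bases, anywhere after the stop codon. Of the 67 clustered genes, 44 had it, against 1 of the 15 variant genes and 34 of 20567 other protein-coding genes (0.165%) whose leading transcripts lie in the same length range, 312 to 7425 bases. The sequences below, DNA letters in the 5′ to 3′ direction on mm10 from the GENCODE M21 transcripts, show members of the 3 commonest forms, another H4 form and the variant that shares the feature. Capitals mark the stem-loop.
Hist2h2aa2: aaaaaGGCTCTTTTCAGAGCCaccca
Hist1h1c: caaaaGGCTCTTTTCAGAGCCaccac
Hist1h2bg: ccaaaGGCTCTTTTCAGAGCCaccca
Hist1h4m: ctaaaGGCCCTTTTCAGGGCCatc
Hist1h2bb: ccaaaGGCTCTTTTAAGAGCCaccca
Hist1h4b: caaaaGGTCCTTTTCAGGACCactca
H2afx: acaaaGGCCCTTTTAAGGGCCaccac

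The form of Hist2h2aa2, Hist1h1c and Hist1h2bg was found in 26 genes of the H1, H2A, H2B and H3 families. The form of Hist1h4m was found in 7 genes, all encoding H4. The form of Hist1h2bb occurred in 6 genes, and that of Hist1h4b in 2. The only variant gene with the feature was H2afx, which encodes the H2A form that is phosphorylated beside DNA breaks. Its stem-loop began 46 bases after the stop codon, and 822 annotated bases followed it.

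Clustered genes were widely detected, each below H3f3b and H3f3a, and a few variant genes held most histone TPM. At a mean of 1 TPM (transcript abundance scaled to a fixed total and corrected for length), 51 of 67 clustered genes (76.1%) and 8 of 15 variant genes (53.3%) were detected. The share of all protein-coding genes at that level was 39.3%. Clustered genes summed to 272 TPM in replicate 1 and 304 TPM in replicate 2, and variant genes to 559 and 533 TPM. Clustered genes therefore held 34.6% ± 2.53 of histone TPM and variant genes 65.4% ± 2.53 (SD, n = 2). In both libraries the variant sum was the higher, by far more than the libraries differed. The median gene stood at 2.41 TPM among clustered genes and 2.66 TPM among variant genes, against 0.11 TPM over all protein-coding genes. The median log2(TPM + 0.1) was 0.14 lower in clustered genes (-0.14, SD 0.092 between libraries), and -1.76 when members under a mean count of 10 were left out. The sum of the variants thus rested on few genes: the top 3 variant genes held 90.6% of variant TPM, and the top 3 clustered genes 34.5% of clustered TPM.

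**Figure D1:**
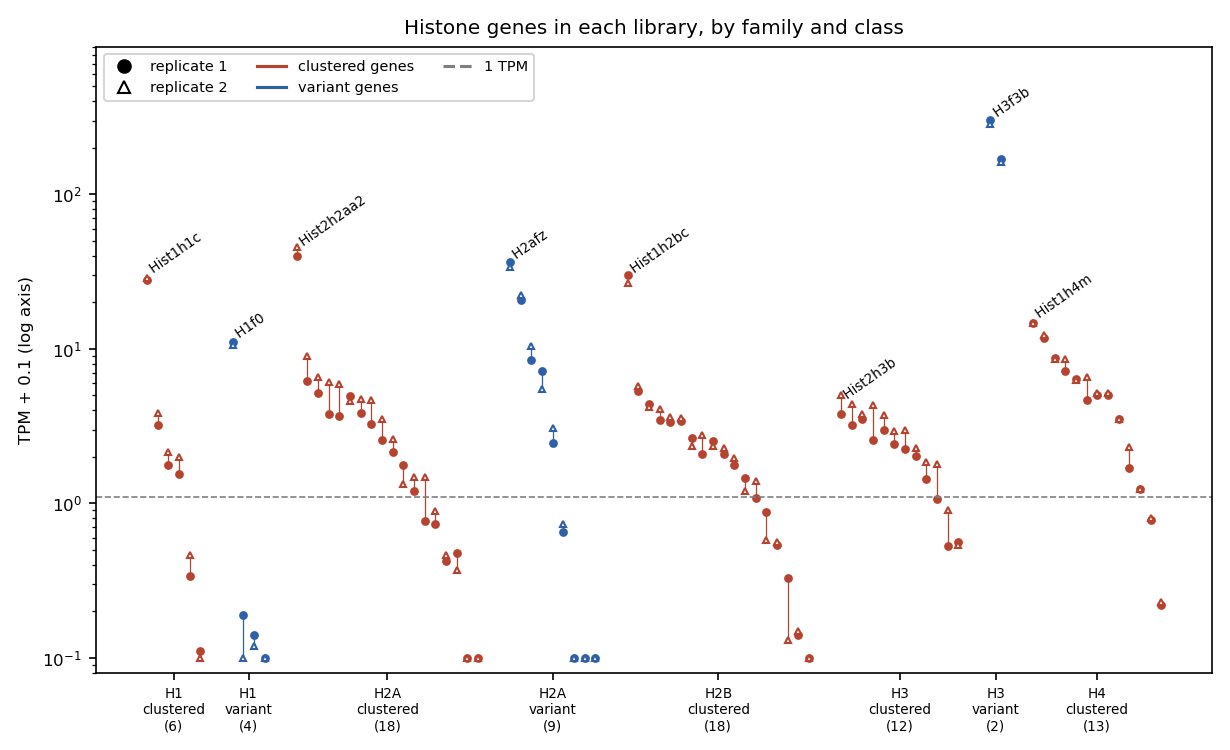
Level of each of the 82 histone genes in both libraries, as TPM + 0.1 on a log axis, ordered within each family and class; filled circles are replicate 1 and open triangles replicate 2. The leading gene of each class is named, and H3f3b and H3f3a stand above all clustered genes.

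The linker histones were carried mainly by a single clustered gene. Hist1h1c, a somatic H1, had 28.0 TPM in replicate 1 and 28.6 TPM in replicate 2, which was 79.5% of clustered H1 TPM. Hist1h1a averaged 3.45, Hist1h1b 1.86 and Hist1h1e 1.67 TPM, and Hist1h1d, another somatic H1, was at 0.30 TPM. The order of these 4 depends on annotated length. Hist1h1d, annotated as 7425 bases, had 203 and 253 counts, more than the 189 and 192 of Hist1h1a, annotated as 741 bases. H1f0, the replacement linker histone known to accumulate in non-dividing cells, had 11.0 and 10.5 TPM. Clustered genes made up 76.7% ± 1.60 of H1 TPM and variant genes 23.3% ± 1.60 (SD, n = 2). The variant H1fx was at 0.04 and 0.02 TPM.

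By TPM, H2A was the family most evenly divided between the classes, but by expected counts variants led. Hist2h2aa2, the most abundant clustered histone gene, had 40.0 and 45.7 TPM. Its closest copy, Hist2h2aa1, had 5.07 and 6.43 TPM. Their annotated coding sequences of 393 bases are identical, so the division between them is uncertain, and their sum was 48.6 ± 5.0 TPM (SD, n = 2). Hist1h2ap followed with 6.09 and 8.90 TPM. Among the variants, H2afz, the main gene for H2A.Z, which replaces H2A near promoters, had 36.3 and 33.8 TPM. H2afv, the other H2A.Z gene, had 7.14 and 5.38 TPM. The proteins predicted from the pair share 125 of 128 residues. H2afy, which encodes macroH2A, an H2A with a large added domain, had 20.6 and 22.2 TPM, while its relative H2afy2 was at 0.55 and 0.63 TPM. H2afj had 8.37 and 10.3 TPM, and H2afx 2.34 and 2.97 TPM. Clustered genes summed to 79.4 and 97.8 TPM and H2A variants to 75.3 and 75.2 TPM. The clustered sum was higher in both libraries, but the gap in replicate 1 was smaller than the SD of the clustered sum, 13.0 TPM. By expected counts, clustered genes held 28.9% of H2A in replicate 1 and 31.4% in replicate 2, and variant genes 71.1% and 68.6%.

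H2B had clustered members only. Hist1h2bc led with 29.9 and 26.8 TPM, 45% of the family, followed by Hist1h2bg with 5.27 and 5.61 TPM. The 18 H2B genes summed to 63.9 and 62.1 TPM. Hist1h2bc stood apart in structure: its leading transcript has 2 exons, 742 bases after the stop codon and no match to the stem-loop pattern. Hist1h2bq, at 2.00 and 2.18 TPM, also had a leading transcript of 2 exons without a match. That transcript averaged 52.1% of the Hist1h2bq count, against 46.2% for the 381-base Hist1h2bq-201. All of its 50-base stretches occur in other genes, so which transcript leads is uncertain. Leading transcripts with more than 1 exon were found in 3 clustered and 7 variant genes. The 3 were Hist1h2bc, Hist1h2bq and Hist1h2be, and that of Hist1h2be does hold the stem-loop.

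H3 mRNA was almost wholly variant. H3f3b had 302 TPM in replicate 1 and 285 TPM in replicate 2, and H3f3a 170.2 and 162 TPM. Both encode the replacement H3, deposited outside S phase by the HIRA and DAXX-ATRX complexes. H3f3b ranked 98 and H3f3a 203 among all protein-coding genes by mean TPM. The 12 clustered H3 genes summed to 25.1 and 33.4 TPM, with Hist2h3b highest at 3.67 and 4.91 TPM. Clustered genes thus held 6.00% ± 1.35 of H3 TPM and variant genes 94.0% ± 1.35 (SD, n = 2). The protein predicted from Hist2h3b differs from that of H3f3b at 4 of 136 residues.

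H4 had clustered members only, and 11 of its 13 genes were detected. Hist1h4m had 14.6 and 14.5 TPM, Hist1h4h 11.7 and 12.2 TPM, Hist1h4f 8.61 and 8.51 TPM, Hist1h4k 7.10 and 8.50 TPM, and Hist1h4c 6.27 and 6.18 TPM. The leading 3 held 48.7% of the H4 sum of 69.6 and 74.2 TPM. The 13 genes encode 1 identical predicted protein of 103 residues through 12 distinct coding sequences. Hist1h4n, at 4.56 and 6.51 TPM, shares its coding sequence with Hist1h4m, and together the pair reached 20.1 ± 1.35 TPM (SD, n = 2).

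**Figure D2:**
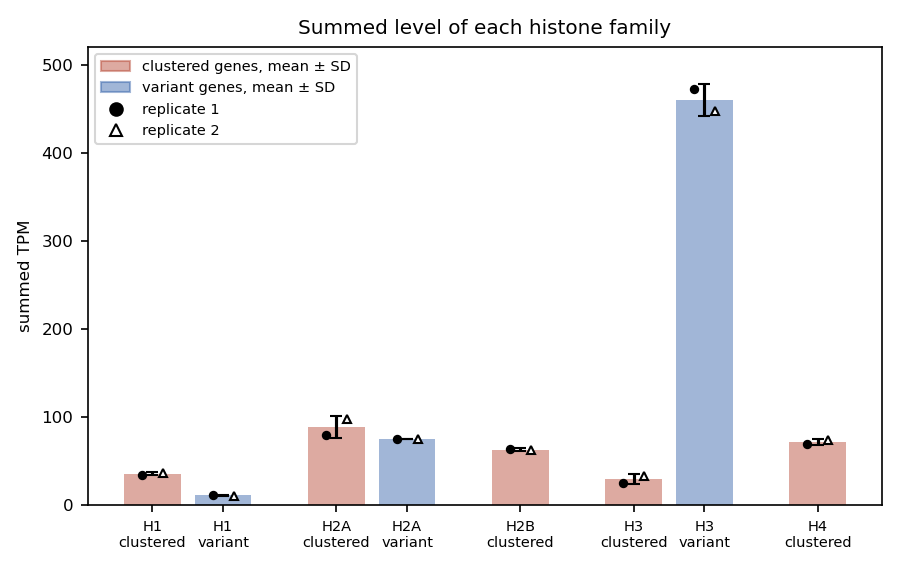
Summed TPM of the clustered and variant genes of each histone family; bars are means, error bars the SD over 2 libraries, and symbols the libraries. The variant H3 genes, at 472 and 447 TPM, exceed every other sum.

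By position, the Hist1 cluster on chromosome 13 (chr13:21715763-23934851, mm10) held 54 clustered genes and 75.5% of clustered TPM. The 10 Hist2 genes on chromosome 3, spread over 50.3 kb, held 22.8%. The pair of Hist3 genes on chromosome 11 held 1.63%, nearly all of it from Hist3h2a at 4.84 and 4.49 TPM, and Hist4h4 on chromosome 6 was at 0.12 and 0.13 TPM. Within Hist1 and Hist2, 12 H2A genes face an H2B gene with start sites 176 to 306 bases apart. Levels differed widely within some of these pairs and less within others. Hist1h2ac averaged 0.34 TPM and its partner Hist1h2bc 28.3 TPM, a log2 difference of -6.01. Their mean counts were 80.8 and 2844. Hist1h2ac is annotated as 2482 bases and Hist1h2bc as 1156, so the size of this difference depends on annotated length. For Hist1h2ak and Hist1h2bn the log2 difference was 0.50. Hist1h2ap had 7.50 TPM and its partner Hist1h2br 1.77 TPM. That contrast is uncertain, because 93.1% of the 50-base stretches of Hist1h2ap and all of those of Hist1h2br occur in other genes.

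Members known for germ-line expression were at or near 0. Of 8 such genes, 0 reached 1 TPM and 6 had 0 counts in both libraries: Hist1h2aa, Hist1h2ba, H1fnt, H2afb1, H2afb2 and H2afb3. Hist1h1t, the testis H1, had 1 count in replicate 1 but 0 in replicate 2. The oocyte gene H1foo had 5 and 0. In a library, 0 counts allows up to 3 counts. Hist1h2ao was also at 0 in both libraries, but 93.5% of its 50-base stretches occur in another gene, mostly Hist1h2ap, and the second quantification gave it a mean of 4.82 counts.

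Annotated ends varied widely among the clustered genes. Of the 44 clustered transcripts with a stem-loop, 9 ended within 30 bases of it, and 35 were annotated further, by up to 4884 bases. The 9 were all detected and summed to 46.8 TPM, or 16.2% of clustered TPM. The 35 summed to 158 TPM, or 54.9%. Hist1h1c is among these, with its stem-loop 24 bases after the stop codon and 840 annotated bases beyond it. The tables give no read positions, so whether reads came from beyond the stem-loop was not tested. The remaining 23 clustered genes held 28.9% of clustered TPM, and 16 of them were annotated with at most 30 bases after the stop codon. The stem-loop itself takes 16 bases and began 21 to 58 bases after the stop codon where it was found.

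Short annotation also changes the length correction. The size range of 250 to 400 bases in the labels is close to the length of many histone mRNAs. The 51 detected clustered genes had a median effective length (the number of positions a fragment can start from) of 299.6 bases, against 1126 bases for the 8 detected variant genes. For 14 clustered genes it was under 200 bases; these held 23.0% of the TPM but 7.38% of the counts of detected clustered genes. Hist1h4k, annotated as 312 bases with none after the stop, reached its 7.80 TPM from 82.8 and 83.3 counts, while Hist1h4d reached 5.01 TPM from 528 and 454 counts. By expected counts, clustered genes held 16.2% of the histone total in replicate 1 and 17.9% in replicate 2, and variant genes 83.8% and 82.1%.

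The authors deposited a second quantification of the same reads, which permits a check of each member. Over protein-coding genes at 1 TPM in either quantification, TPM in the first was a median 2.14-fold that in the second, and the count was 92.9% of the second. Clustered genes with more than 30 annotated bases after the stop codon had a median of 95.8% (n = 47 averaging at least 10 counts), and variant genes 93.7% (n = 9). The 13 clustered genes with 30 or fewer bases had a median of 62.2%, and 11 of them were under 90%. Of those with longer ends 10 of 47 clustered and 2 of 9 variant genes were under 90%, and of all protein-coding genes averaging at least 10 counts 28.1%. Hist1h2ah had 36.6%, Hist1h2ak 50.1% and Hist1h4k 53.5%. Genes whose annotation stops at or near the coding sequence were thus mostly counted lower in the first quantification than in the second, and the cause was not tested. In the second quantification 38 clustered and 8 variant genes reached 1 TPM, the 8 variant genes kept the same order, and 9 of the 12 leading clustered genes were shared.

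**Figure D3:**
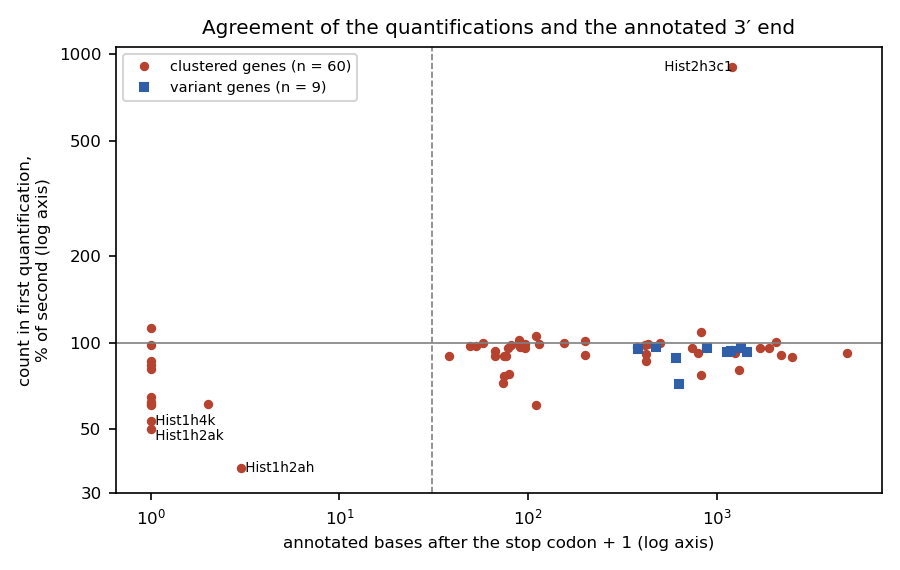
Count in the first quantification as a percentage of the second (log axis) against the annotated bases after the stop codon plus 1 (log axis), for members averaging at least 10 counts; the dashed line marks 30 bases. Genes left of the line reach down to 36.6%, variant genes lie between 71.6% and 96.7%, and Hist2h3c1 stands at 902%.

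A single gene went strongly the other way. Hist2h3c1 had 249.5 and 276 counts in the first quantification, against 0 and 58.3 in the second. All of the 50-base stretches of its leading transcript occur in Gm20634, annotated as a processed transcript on the same strand. Gm20634 also overlaps Hist2h2aa1 and itself had 915 and 662 counts. Hist2h2aa1 had 60.8% of its count in the second quantification, whereas the sum of Hist2h2aa1 and Hist2h2aa2 had 95.5%. The separate values of these Hist2 genes are uncertain, and why the quantifications differ for them was not tested.

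Clustered genes shared more of their sequence with other genes than variant genes did. The median share of a leading transcript's 50-base stretches found in another gene was 49.7% for clustered genes and 6.14% for variant genes. More than 50% of the stretches were shared in 33 of 67 clustered genes and in 0 of 15 variant genes. The abundant variants were not free of it, with 43.9% shared for H3f3a, 33.2% for H2afz and 10.6% for H3f3b. The authors' posterior SD, which expresses how uncertainly reads were divided among genes, had a median of 3.45% of the count in clustered genes and 0.0614% in variant genes, taking members averaging at least 10 counts. It passed 10% in 10 clustered genes and in 0 variant genes, whose highest was 1.02%. Hist1h2br had the highest, 69.8%, and its stretches all occur in Hist1h2bq, at 32.0%. As a percentage this SD also depends on the count. All stretches of Hist2h2aa2 are shared, yet its SD was 2.30%, against 13.6% for its copy Hist2h2aa1. In counts the SDs were alike, 32.8 and 31.5 for Hist2h2aa2 and 31.2 and 29.35 for Hist2h2aa1.

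**Figure D4:**
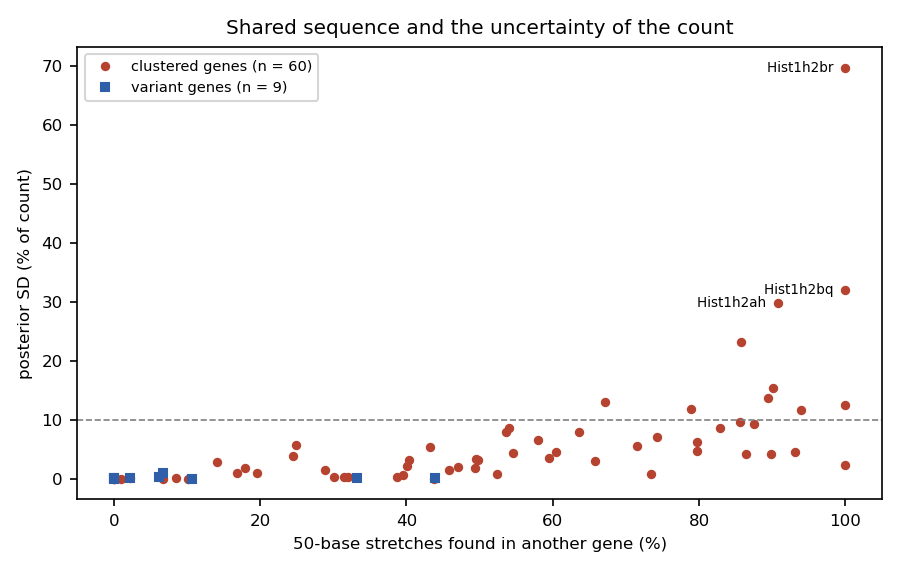
Posterior SD as a percentage of the count against the percentage of 50-base stretches of the leading transcript found in another gene, for members averaging at least 10 counts. All points over the dashed line at 10% are clustered genes with more than 60% of stretches shared, and the variant genes lie at 1.02% or lower.

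The isoforms of the variant genes were read from the transcript table. H3f3b-201 took 98.9% of the H3f3b count and H2afz-201 97.4% of the H2afz count. H3f3a was divided among H3f3a-201 with 42.5% and 44.5%, H3f3a-205, which is 2841 bases long, with 42.5% and 36.2%, and H3f3a-207 with 14.8% and 19.1%. H2afy was divided among H2afy-202 with 40.8% and 41.6%, H2afy-201 with 41.1% and 37.6%, and H2afy-204, annotated without a coding sequence, with 17.2% and 17.8%. H2afv-202 took 76.2% and 81.4% of the H2afv count. H3f3a-205 averaged 39.4% in the first quantification and 26.3% in the second, so that division depends on the quantification.

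Few genes averaging at least 100 counts differed widely between the libraries. Among all genes averaging at least 10 counts, 5% had a log2 ratio of replicate 1 to replicate 2 below -1.18. The highest 5% lay above 0.49, and for protein-coding genes these limits were -0.60 and 0.44. Of all genes averaging at least 100 counts, 1.6% lay more than 2-fold apart between replicates after TMM scaling; among histone genes 0 of 32 clustered and 0 of 9 variant genes did, a share near that background. With no count filter, 2 clustered genes and 1 variant gene lay over 2-fold apart. Smaller differences were not of 1 direction throughout either class. The median log2 ratio of replicate 1 to replicate 2 was -0.17 in 60 clustered genes averaging at least 10 counts, 17 of which were higher in replicate 1 and 43 in replicate 2. It was 0.13 in 9 variant genes, 5 higher in replicate 1 and 4 in replicate 2, and 0.0044 over all genes. Summed counts gave a ratio of 0.983 for clustered genes (95% Clopper-Pearson interval 0.962 to 1.00) and 1.11 for variant genes (1.1 to 1.12), intervals that cover counting error only. Among clustered families the ratio was 0.972 for H1, 0.914 for H2A, 1.14 for H2B, 0.789 for H3 and 0.985 for H4. The clustered median was -0.052 in the second quantification and -0.096 without the members of posterior SD over 10%, whose counts are the hardest to assign.

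The widest differences among members averaging at least 100 counts were in clustered genes. Hist1h3f had 116 counts in replicate 1 and 173 in replicate 2, a scaled ratio of 0.584 (interval 0.459 to 0.745). Hist1h1d, Hist1h2ap, Hist1h2ab and Hist1h4n followed with ratios of 0.701 to 0.724. Other genes hold 93.1% of the 50-base stretches of Hist1h2ap, 58.0% of Hist1h2ab and 85.6% of Hist1h4n, so these separate ratios are uncertain. Hist1h2be went the other way with 205 and 104 counts, a ratio of 1.72 (1.35 to 2.20), and its annotated span overlaps that of Hist1h1e on the same strand. Hist2h2be had a ratio of 1.28. H2afv had the highest variant ratio, 1.23 (1.09 to 1.40), and H2afx the lowest, 0.818 (0.698 to 0.955). The abundant genes Hist1h1c, at 1.01, and H2afy, at 0.98, were close to equal.

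**Figure D5:**
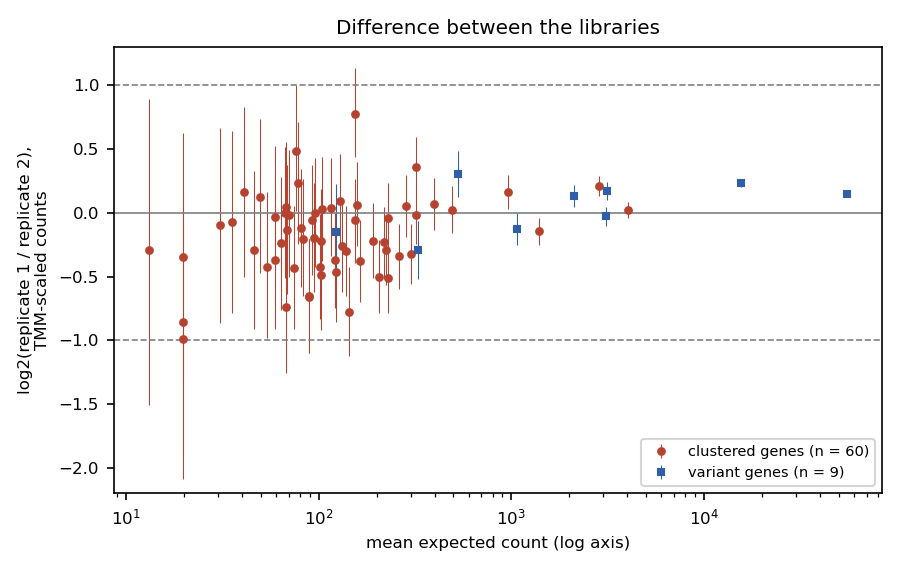
Log2 ratio of replicate 1 to replicate 2 from TMM-scaled counts against the mean count (log axis), with 95% counting intervals; dashed lines mark 2-fold. Clustered genes lie mostly below 0 and spread more at low counts, and H3f3a and H3f3b lie above 0.

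The libraries also differed in nuclear RNA. The 4 nuclear-retained RNAs Malat1, Neat1, Xist and Kcnq1ot1 summed to 174 TPM in replicate 1 and 869 TPM in replicate 2, and each was 4.06 to 4.76-fold higher in replicate 2 by scaled counts. Macrophage markers were detected for 8 of 8 genes, from 16.7 TPM for Itgam to 4169 TPM for Lyz2, and 6 of the 8 were higher in replicate 2. Markers of T cells, B cells, granulocyte precursors, stromal cells and erythroid cells had 0 of 4 detected in each list, with summed levels of at most 1.00 TPM in either library. The part of nuclear RNA in the replicate ratios of histone genes was not tested.

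Genes that process histone mRNA and genes that chaperone histone proteins were mostly detected. Of 16 genes of histone mRNA 3′ processing and turnover, 12 were detected, a share to be read beside the 39.3% of all protein-coding genes. Tut7, which adds uridines to histone mRNA in decay, was highest at 21.6 TPM, then Sympk, a scaffold of the cleavage complex, at 11.7 TPM. Srrt followed with a mean of 9.995 TPM (8.94 and 11.05), then Lsm10, of the U7 particle, at 9.27 TPM. Slbp, the stem-loop-binding protein, had 5.17 and 4.86 TPM. Below 1 TPM were Npat, the transcriptional coactivator of clustered genes, at 0.87, Coil at 0.63, Lsm11 at 0.54 and Zfp473 at 0.020 TPM. Of 15 histone chaperone genes 13 were detected, to be read beside the same 39.3%. They were led by Npm1 at 66.8, Nap1l1 at 23.3, Atrx at 15.1 and Supt16 at 12.2 TPM. Hira, which deposits the replacement H3, had 3.04 and 3.02 TPM, and Daxx 10.9 and 8.62 TPM. The chaperones under 1 TPM were Asf1b at 0.88 and Chaf1a at 0.43 TPM. Chaf1b, the partner of Chaf1a in the CAF-1 complex that works at replication forks, was at 2.47 TPM, and Asf1a, the relative of Asf1b, at 1.76 TPM.

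Of 17 S phase genes 11 were detected, to be read beside the same 39.3%. Pcna, the replication clamp, reached 66.9 and 58.6 TPM, followed by Cdt1 at 6.70, Mcm6 at 5.64 and Mcm3 at 4.26 TPM. Rrm2, Tyms, Cdc6, Ccne1, Ccne2 and Ccna2 were below 1 TPM, from 0.24 to 0.99 TPM. Their log2 ratio of replicate 1 to replicate 2 had a median of -0.080, with 6 higher in replicate 1 and 11 in replicate 2.

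Promoters differed between the classes in the motifs they hold. RefSeq start sites (GRCm38.p6) within 1000 bases of the leading transcript's start were found for 61 clustered and 13 variant genes, each with 250 bases before and 50 after the start. The letters TATAAA, on either strand, were in 55.7% of clustered and 7.69% of variant promoters, against 14.2% of 27025 promoters in the table. CCAAT was in 85.2% of clustered and 69.2% of variant promoters, against 37.9%. ATTTGCAT, the octamer, was in 21.3% of clustered and 7.69% of variant promoters, against 1.75%. Among clustered genes the octamer letters were found only in H2A (7 of 18) and H2B (6 of 16) promoters, and facing H2A and H2B genes can share the same bases. CCAAT was in all H1, H2A, H2B and H3 promoters matched but in 3 of 12 for H4. H3f3b was the only variant with TATAAA and the only one with the octamer. The promoters of Hist1h2bg (chr13:23571150-23571449, plus strand) and H3f3b (chr11:116024455-116024754, minus strand) are shown because each holds all 3 motifs, in capitals, 5′ to 3′ on the strand of the gene.
Hist1h2bg: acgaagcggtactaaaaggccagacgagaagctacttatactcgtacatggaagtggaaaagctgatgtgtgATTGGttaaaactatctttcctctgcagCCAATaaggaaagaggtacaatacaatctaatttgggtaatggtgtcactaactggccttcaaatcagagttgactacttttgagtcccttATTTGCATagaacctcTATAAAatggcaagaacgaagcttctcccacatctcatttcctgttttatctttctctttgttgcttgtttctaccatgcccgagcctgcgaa
H3f3b: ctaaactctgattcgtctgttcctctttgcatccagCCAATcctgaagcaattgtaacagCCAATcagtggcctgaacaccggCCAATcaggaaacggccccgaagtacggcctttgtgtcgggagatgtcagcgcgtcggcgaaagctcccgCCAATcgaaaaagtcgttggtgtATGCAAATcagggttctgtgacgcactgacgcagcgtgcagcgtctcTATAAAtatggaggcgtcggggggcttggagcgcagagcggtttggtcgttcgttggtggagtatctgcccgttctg

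Their levels differed widely, with Hist1h2bg at 5.44 ± 0.24 TPM and H3f3b at 294 ± 12.3 TPM (SD, n = 2). A match of letters describes the window only.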

How the data were processed

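Per the deposited readme files, all tables used mm10 and GENCODE M21; the first quantification came from transcriptome alignments and the second directly from the reads. The sources used here do not name the aligner, the quantifiers, their versions or whether strand was used, so reads from a member and an overlapping antisense gene may not be separable. The expected counts were deposited by the authors as estimates that need not be whole, and were rounded for scaling. The TPM values were scaled by the authors, per the file headers. The posterior SD is another deposited column. Second-quantification values were summed per gene. The gene tables also held 97 spike-in and 26248 numbered entries, which were left out; the spike-ins took 0.251% and 0.204% of the count. Genes then totalled 55596625 and 50157146 expected counts.

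Members, gene lists and comparisons were chosen with earlier results of these data known. With 1 group of 2 libraries no test was possible and no p-value was computed. Replicate ratios used TMM factors from edgeR 4.0.16 (R 4.3.3) over genes averaging at least 10 counts, with 0.5 added to scaled counts; DESeq2 1.42.0 size factors were an alternative. The calculation was checked on simulated data. Named are all variants, the 12 highest clustered genes, other clustered genes at 1 TPM, the widest ratios, and list members that were highest or below 1 TPM; others, such as Slbp, Hira, Daxx and the remaining members, were chosen after their values were seen, as were the comparison by annotated end, the shared 50-base stretches and the genes whose promoters are shown. Python 3.11.15, numpy 2.4.6, pandas 2.3.3, scipy 1.17.1, matplotlib 3.10.9 and Biopython 1.88 were used. RefSeq proteins were not used here; proteins were predicted from annotated coding sequences.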

Additional observations from a re-analysis of the deposited data

How the results depend on the processing

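The clustered genes' share of histone TPM was 34.6%, and 34.3% in the second quantification; single libraries gave 32.8% to 36.4%, and the protein-coding scale cannot change it. It was 17.0% by expected counts and, in an alternative chosen after seeing the data, 31.3% without members annotated with 30 or fewer bases after the stop codon. At 5 TPM, 14 clustered genes were detected in place of 51. With TPM rescaled over nuclear protein-coding genes, 60 were at or above 1 TPM. The difference of medians was -0.019 in the second quantification, -1.76 over members averaging at least 10 counts, and -0.15 to -0.018 in single libraries. The median replicate ratio of clustered genes was -0.21 from TPM, -0.052 in the second quantification and -0.096 without members of posterior SD over 10%, also chosen after seeing the data; that of variant genes was 0.071 from TPM and 0.22 in the second quantification. The median over all genes was -0.050 from TPM, against 0.0044 with TMM scaling, which is about the size of the shifts from TPM. With no count filter, 2 clustered genes and 1 variant gene lay over 2-fold apart. The cause of the shifts in the second quantification was not tested. Of 27 named genes, 22 moved by more than their SD in the second quantification and 23 on the protein-coding scale, which rescale all genes. A ratio between replicates needs both libraries, so none could be left out there. No paired analysis was possible because there is 1 group. Depth limits the lowest members, with 69 of 82 averaging at least 10 counts.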
